A study of Eleusine coracana with 4 samples.

Results

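The aminotransferases and decarboxylating enzymes that move carbon between the cell types of a C4 leaf were followed in finger millet (Eleusine coracana) at 10 loci, of 55986 features in the deposited tables. The loci were given by identifier, with 2 aspartate aminotransferases (LOC_Os01g55540 and LOC_Os02g55420), 2 alanine aminotransferases (LOC_Os10g25130 and LOC_Os10g25140), 2 NAD malic enzymes (LOC_Os07g31380 and LOC_Os10g35960), 2 NADP malic enzymes (LOC_Os01g09320 and LOC_Os05g09440), PEP carboxykinase (LOC_Os03g15050) and NADP malate dehydrogenase (LOC_Os08g44810). The loci were chosen by enzyme family with no threshold on a measured value, but with their total and unique gene reads in these 4 libraries already known, so the values below are a description and were not tested. All 10 loci were found in every table. The enzyme names come with the list. The tables themselves pair no identifier with a name, and the identifiers have the form of rice loci in the MSU annotation.

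The libraries came from young, fully expanded leaves near the shoot apex of plants in pots of field soil, grown for 20 days before treatment. CO12 control and Trichy 1 control plants were kept well watered, and CO12 salt and Trichy 1 salt plants received NaCl to 300 mM at the stage of 4 leaves. Each of the 4 groups is 1 library, so no difference has a replicate check, no p-value is given, and each interval covers counting error alone. The labels do not give the number of plants behind a library, the time between salt and sampling, or which genotype is the tolerant one of the series title. Reads are counts per locus, RPM is reads scaled to 1000000 total gene reads of the library, and RPKM is RPM per kilobase of the deposited gene length.

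In C4 plants carbon dioxide is first fixed into a 4-carbon acid in mesophyll cells, and the acid is carried to bundle sheath cells and decarboxylated beside Rubisco. Finger millet belongs to the C4 grasses that use NAD malic enzyme. In these plants aspartate aminotransferase makes aspartate in the mesophyll and turns it back to oxaloacetate in bundle sheath mitochondria, NAD malic enzyme releases carbon dioxide from malate there, and alanine aminotransferase converts the pyruvate to alanine, which returns to the mesophyll. NADP malic enzyme of the chloroplast and PEP carboxykinase of the cytosol are the decarboxylases that lead in other C4 grasses, and NADP malate dehydrogenase makes malate in the chloroplast. Members of all these families also serve general metabolism in leaves, and the tables do not separate cell types, cell compartments or the subgenome copies of this tetraploid species.

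The 4 libraries held 1831353 to 6272817 total gene reads, and the libraries of salt-treated plants were the shallower ones. The 20 most abundant features of each library took 95.5% to 96.1% of its reads, which left 75409 to 244857 reads for all others. A list of 11 loci meant as leaf markers had reads at all 11 in every library, with none at 0, and summed to 1321 RPM without and 775 with salt in CO12, and to 1458 and 803 in Trichy 1. These are total reads, and LOC_Os01g52240 on this list had 0 unique reads in every library. These marker identifiers were set down from background knowledge and no annotation was at hand to check them, so the leaf label rests on the submitters' word.

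The 10 loci together had 908 reads without salt and 105 with salt in CO12, and 535 and 145 in Trichy 1. In the same order this was 145 RPM (95% Poisson interval 135 to 154), 57.3 (46.9 to 69.4), 160 (147 to 174) and 60.2 (50.8 to 70.9), so the intervals of the salt libraries lay apart from those of the controls. The summed level was 2.52-fold lower with salt in CO12 (95% interval 2.06 to 3.12) and 2.65-fold lower in Trichy 1 (2.20 to 3.21). As a share of the reads outside the 20 most abundant features, the 10 loci held 0.371% and 0.139% in CO12 control and salt, and 0.357% and 0.147% in Trichy 1. In these whole-leaf libraries, fewer cells of a type and less RNA per cell cannot be told apart. The summed level of the leaf marker list was also lower with salt, as given above. Of its loci with 20 reads or more, 2 of 11 were at least 2-fold lower in CO12 and 3 of 10 in Trichy 1, beside 19.1% and 17.2% of all features, and 0 were 2-fold higher. All 11 in CO12 and all 10 in Trichy 1 lay below control. The median log2 ratio of these marker loci was -0.77 and -0.76, beside -0.15 and -0.25 over all features. Their part in the result was not tested.

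Reads of these loci were almost all unique matches. The unique share of the control and the salt library was 98.3% and 97.1% in CO12, and 98.3% and 98.6% in Trichy 1. Over all features outside the 20 most abundant it was 69.3% to 72.7%. With unique reads alone, as many of the loci were 2-fold apart in each comparison.

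**Figure D1:**
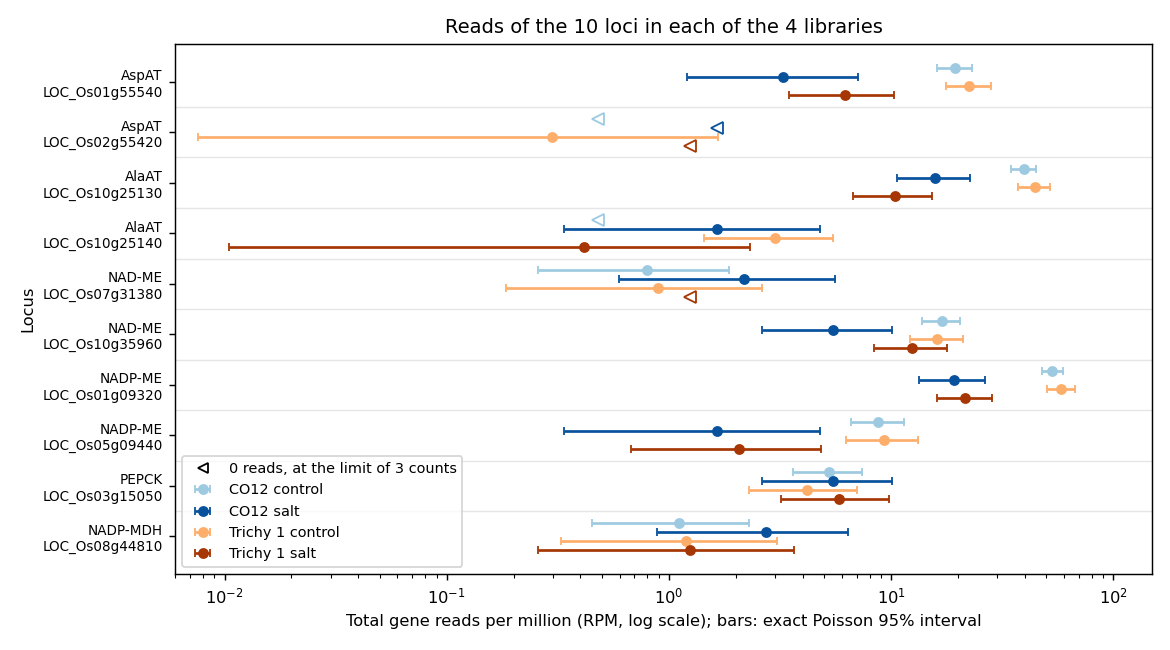
Reads scaled to 1000000 total gene reads (RPM, log axis) of each locus in the 4 libraries, with exact Poisson 95% intervals as bars. Open triangles mark libraries with 0 reads, drawn at the level of 3 counts. The aminotransferase LOC_Os10g25130 and the NADP malic enzyme LOC_Os01g09320 have the most reads in every library but Trichy 1 salt, where NAD malic enzyme LOC_Os10g35960 (30 reads) stands ahead of LOC_Os10g25130 (25), and PEP carboxykinase LOC_Os03g15050 stays between 4.18 and 5.82 RPM in all 4.

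Nearly all reads of the 2 listed aspartate aminotransferase loci were at LOC_Os01g55540, on chromosome 1 by its identifier, with a deposited length of 5040 bp. In CO12 it had 121 reads without salt and 6 with salt, or 19.3 and 3.28 RPM, and in Trichy 1 it had 75 and 15 reads, or 22.4 and 6.23 RPM. Both control libraries were high and close to each other, both salt libraries were low, and no salt interval reached a control interval. The level was 5.89-fold lower with salt in CO12 (95% interval 2.63 to 16.4) and 3.59-fold lower in Trichy 1 (2.05 to 6.74), and the whole of both intervals lay beyond 2-fold. The other listed aspartate aminotransferase locus, LOC_Os02g55420, had a single read, in Trichy 1 control, and 0 in the other libraries. A count of 0 allows up to 0.478 RPM in CO12 control, 1.64 in CO12 salt and 1.25 in Trichy 1 salt, so no salt difference was detectable there.

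Most reads of the 2 listed alanine aminotransferases, which form alanine from pyruvate, were at LOC_Os10g25130 (chromosome 10, 6434 bp). CO12 had 248 reads of it in control and 29 with salt (39.5 and 15.8 RPM), and Trichy 1 had 148 and 25 (44.2 and 10.4 RPM). The controls were again high and the salt libraries low, with no overlap of their intervals. The level was 2.5-fold lower with salt in CO12 (1.70 to 3.81) and 4.26-fold lower in Trichy 1 (2.77 to 6.79), and only the Trichy 1 interval lay wholly beyond 2-fold. LOC_Os10g25140, the next identifier in the series (5082 bp), had 0 reads in control and 3 with salt in CO12, and 10 and 1 in Trichy 1, all of them unique. It had 10 reads in Trichy 1 control against 0 in CO12 control. With the CO12 count set at the limit of 3, this was 6.25-fold higher in Trichy 1. The counting interval, which also covers the error of the 10 reads, ran from 4.20-fold upward.

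For NAD malic enzyme, the decarboxylase known for finger millet's C4 type, most reads of the 2 listed loci were at LOC_Os10g35960 (chromosome 10, 5455 bp). Its reads, all unique, numbered 106 in control and 10 with salt in CO12 (16.9 and 5.46 RPM), and 54 and 30 in Trichy 1 (16.1 and 12.5 RPM). CO12 salt was the lowest library, with an interval (2.62 to 10.04) below those of both controls, while that of Trichy 1 salt (8.41 to 17.8) overlapped the intervals of all other libraries. The level was 3.09-fold lower with salt in CO12 (1.62 to 6.64). In Trichy 1 it was 1.29-fold lower, with an interval from 0.814 to 2.09 that includes equality. The other listed NAD malic enzyme locus, LOC_Os07g31380 (chromosome 7, 8810 bp), had 5 reads in control and 4 with salt in CO12 and 3 and 0 in Trichy 1, too few to give a salt difference. Plant NAD malic enzyme is built from more than 1 kind of subunit, and per length this locus reached at most 0.248 RPKM against 1.00 to 3.10 for LOC_Os10g35960.

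Among the families as listed, NADP malic enzyme had the highest level. LOC_Os01g09320 (chromosome 1, 5687 bp) had 333 reads without and 35 with salt in CO12 (53.1 and 19.1 RPM), and 195 and 52 in Trichy 1 (58.3 and 21.6 RPM). Scaled to library totals, the salt libraries were low in both genotypes by nearly the same factor. The level with salt was 0.360 of control in CO12 (0.247 to 0.511), or 2.78-fold lower, and 0.371 of control in Trichy 1 (0.268 to 0.506), or 2.70-fold lower. With TMM factors over all features the log2 ratios were further apart, at -2.22 in CO12 and -1.60 in Trichy 1. With median-of-ratios factors over all features they were -1.99 and -1.61. LOC_Os05g09440 (chromosome 5, 3865 bp) had 55 and 3 reads in CO12 (8.77 and 1.64 RPM) and 31 and 5 in Trichy 1 (9.26 and 2.08 RPM). It was 5.35-fold lower with salt in CO12 (1.74 to 26.7) and 4.46-fold lower in Trichy 1 (1.72 to 14.7). With 3 and 5 reads in the salt libraries these folds are known only loosely, and the ratio of the pair of NADP malic enzymes within a library did not change with salt beyond its counting interval in either genotype.

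PEP carboxykinase, which decarboxylates oxaloacetate in the cytosol and also serves gluconeogenesis, did not share this pattern. LOC_Os03g15050 (chromosome 3, 5337 bp) had 33 reads without and 10 with salt in CO12 (5.26 and 5.46 RPM), and 14 and 14 in Trichy 1 (4.18 and 5.82 RPM), all unique. The intervals of all 4 libraries overlapped. The ratio of salt to control was 1.04 in CO12 (0.456 to 2.16), where the sign turned with the scaling, and 1.39 in Trichy 1 (0.615 to 3.15), where both libraries were under 20 reads. NADP malate dehydrogenase LOC_Os08g44810 (chromosome 8, 5229 bp) had 7 and 5 reads in CO12 (1.12 and 2.73 RPM) and 4 and 3 in Trichy 1 (1.19 and 1.25 RPM), and no salt difference was detectable at this depth.

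To set these folds against all features, a locus was counted where one of the libraries compared held 20 reads of it or more. In CO12 6 of the 10 loci passed, and 5 of them were at least 2-fold lower with salt and 0 at least 2-fold higher. Over all 1025 features that passed, 19.1% were 2-fold lower and 10.8% 2-fold higher. This background moved with the scaling, to 45.8% lower and 3.42% higher with TMM factors over all features and to 36.8% and 4.88% with median-of-ratios factors over all features, while the count of loci did not. In Trichy 1 5 loci passed, and 4 were at least 2-fold lower and 0 higher, where 17.2% of 727 features were 2-fold lower and 11.7% higher. These shares were 23.7% and 9.77% with TMM factors over all features, and 23.8% and 9.63% with median-of-ratios factors over all features. With factors over features at the floor, by TMM or by median of ratios, they were 11.4% and 14.4%. The 4 loci not counted in CO12 had at most 7 reads in either of its libraries. A locus can pass this floor through its control library alone, and LOC_Os01g55540, LOC_Os05g09440, LOC_Os10g35960 and LOC_Os03g15050 did so in CO12, as LOC_Os01g55540 and LOC_Os05g09440 did in Trichy 1. Because the list was drawn up with these counts known, nothing is read from the difference to the background.

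The median log2 ratio of salt to control over the counted loci was -1.54 in CO12 and -1.82 in Trichy 1, beside -0.15 and -0.25 over all features that passed. The interval of the ratio lay wholly below equality for 5 loci in CO12, where 21.8% of all features did so, and for 4 in Trichy 1, where 33% did. It lay wholly beyond 2-fold lower for 1 locus in CO12 (background 2.05%) and for 2 loci in Trichy 1 (background 3.16%).

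**Figure D2:**
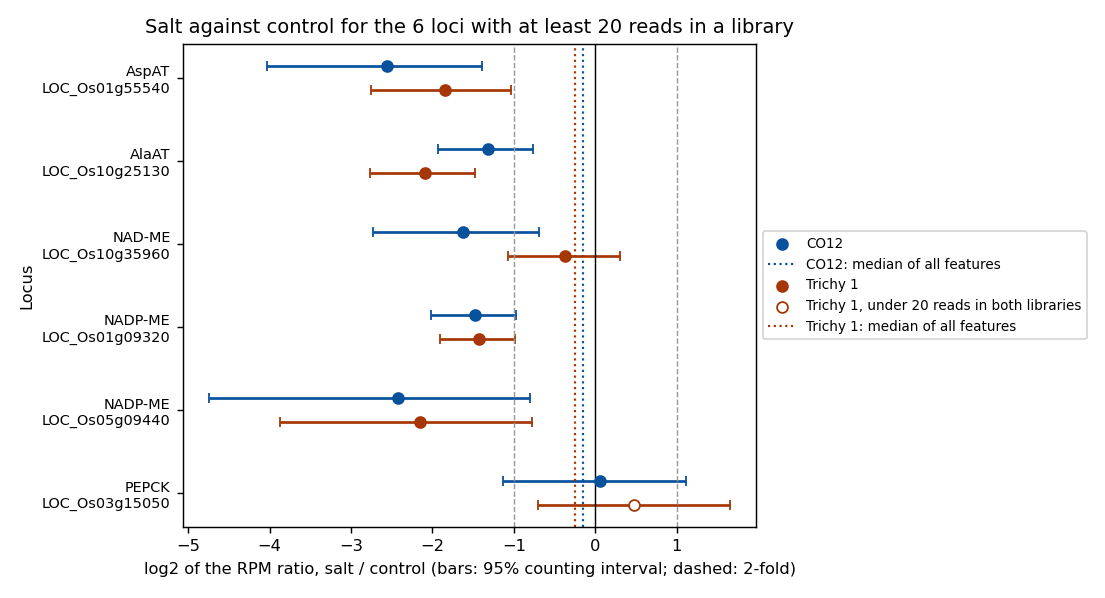
The log2 ratio of RPM, salt over control, of the 6 loci with at least 20 reads in a library, for CO12 and Trichy 1, with 95% counting intervals as bars. Dotted lines mark the median of all features (-0.15 and -0.25) and dashed lines 2-fold. The aminotransferases and NADP malic enzymes lie to the left of -1 in both genotypes, NAD malic enzyme LOC_Os10g35960 in CO12, and PEP carboxykinase lies near 0 in CO12, with a sign that turned with the scaling.

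The salt comparisons of the genotypes share no library. Of the 5 loci counted in both, 4 were at least 2-fold lower in both: LOC_Os01g55540, LOC_Os10g25130, LOC_Os01g09320 and LOC_Os05g09440. LOC_Os01g55540 and LOC_Os05g09440 passed the floor through the control library alone in both genotypes. Among the 686 features counted in both, 6.56% were lower in both by that measure and 4.08% were higher in both. The list was drawn up with these counts known, so nothing is read from the difference to this background.

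**Figure D3:**
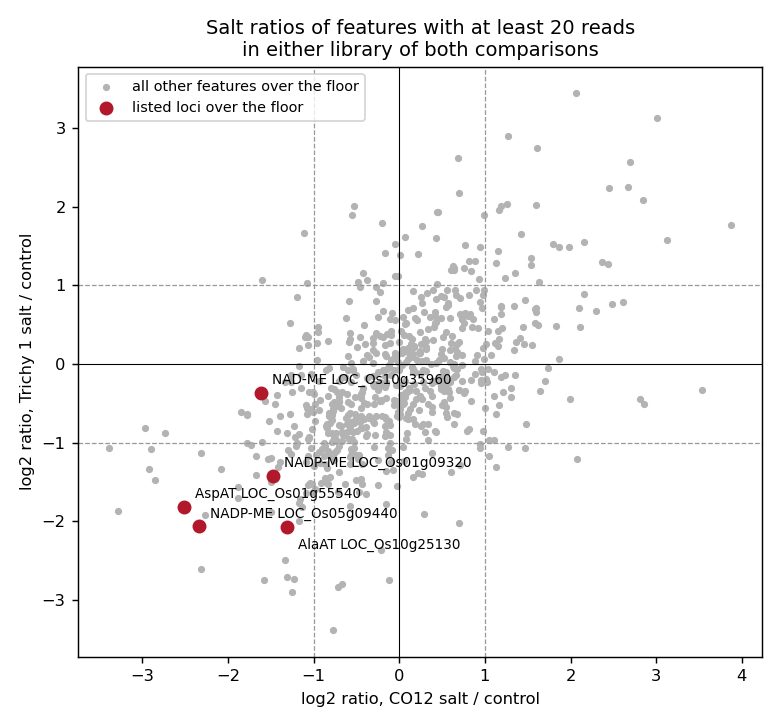
Each point is 1 of the 686 features that reached 20 reads in a library of each salt comparison, by its log2 ratio of salt to control in CO12 (horizontal) and Trichy 1 (vertical). The 5 listed loci are in red and the dashed lines mark 2-fold; 4 of the 5 lie in the lower left corner beyond both lines.

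Among the 5 loci counted in both salt comparisons, NAD malic enzyme LOC_Os10g35960 differed most in its salt ratio between the genotypes. Its log2 ratio was -1.61 in CO12 and -0.37 in Trichy 1, a difference of 1.24 (95% interval 0.12 to 2.36). It was the 1 locus of 5 whose response was at least 2-fold apart. Over all 686 features 25.9% were, so nothing is read from this count. With TMM or median-of-ratios factors over all features the count was 2, with LOC_Os01g55540 added, and with a floor of 100 reads, which LOC_Os10g35960 does not pass in Trichy 1, it was 0. Alanine aminotransferase LOC_Os10g25130 leaned the other way when scaled to library totals, with a difference of -0.76 (-1.58 to 0.06). The genotypes were closer with TMM factors over all features, where its log2 ratios were -2.07 in CO12 and -2.25 in Trichy 1. With median-of-ratios factors over all features they were -1.84 and -2.25. Scaled to library totals, the difference was 0.70 (-0.69 to 2.08) for LOC_Os01g55540, 0.04 (-0.62 to 0.71) for LOC_Os01g09320 and 0.27 (-1.77 to 2.30) for LOC_Os05g09440. Each of these intervals includes 0. With 1 library per group none of these differences was tested against the spread between plants.

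Ratios between loci within a library are free of the scaling to library totals. Per read of NAD malic enzyme LOC_Os10g35960 there were 2.34 reads of alanine aminotransferase LOC_Os10g25130 in control and 2.90 with salt in CO12, and 2.74 and 0.833 in Trichy 1. Trichy 1 salt was the low library, with an interval (0.470 to 1.47) below those of both controls that overlapped the interval of CO12 salt (1.37 to 6.67). The ratio was 3.29-fold lower with salt in Trichy 1 (1.78 to 6.09) and 1.24 times its control value in CO12 (0.583 to 2.63). This pair joins the loci with the highest and lowest difference between genotypes above, on the same counts, so it is no separate support. LOC_Os10g35960 per read of LOC_Os01g09320 was with salt 0.898 times its control value in CO12 (0.430 to 1.87) and 2.08 times in Trichy 1 (1.21 to 3.58). LOC_Os01g55540 per read of LOC_Os10g25130 was 0.424 times (0.171 to 1.05) and 1.18 times (0.589 to 2.38).

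PEP carboxykinase was higher relative to NADP malic enzyme LOC_Os01g09320 in the salt library of both genotypes. Per read of the NADP malic enzyme there were 0.0991 reads of LOC_Os03g15050 in control and 0.286 with salt in CO12, and 0.0718 and 0.269 in Trichy 1. With salt it was thus 2.88 times its control value in CO12 (1.31 to 6.34) and 3.75 times in Trichy 1 (1.68 to 8.36). Against NAD malic enzyme LOC_Os10g35960 the same ratio was 3.21 times its control value in CO12 (1.23 to 8.39) and 1.80 times in Trichy 1, with an interval (0.758 to 4.27) that includes equality. Both ratios use the same LOC_Os03g15050 reads as the levels above, so they are no separate support.

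The shares of the loci in the reads of all 10 restate the same counts and are no separate support. PEP carboxykinase held 3.63% of their reads in CO12 control (Wilson 95% interval 2.60 to 5.06) and 9.52% in CO12 salt (5.26 to 16.6), and 2.62% (1.57 to 4.34) and 9.66% (5.84 to 15.6) in Trichy 1. The NADP malic enzymes together held 42.7% in control and 36.2% with salt in CO12, and 42.2% and 39.3% in Trichy 1, with intervals that overlap. The NAD malic enzymes held 12.2% and 13.3% in CO12 and 10.7% and 20.7% in Trichy 1, where the salt library (14.9 to 28.0) lay above the interval of Trichy 1 control (8.31 to 13.6). The alanine aminotransferases held 27.3% and 30.5% in CO12 and 29.5% and 17.9% in Trichy 1, with Trichy 1 salt (12.5 to 25.0) below Trichy 1 control (25.8 to 33.5). The aspartate aminotransferases held 13.3% and 5.71% in CO12 and 14.2% and 10.3% in Trichy 1.

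**Figure D4:**
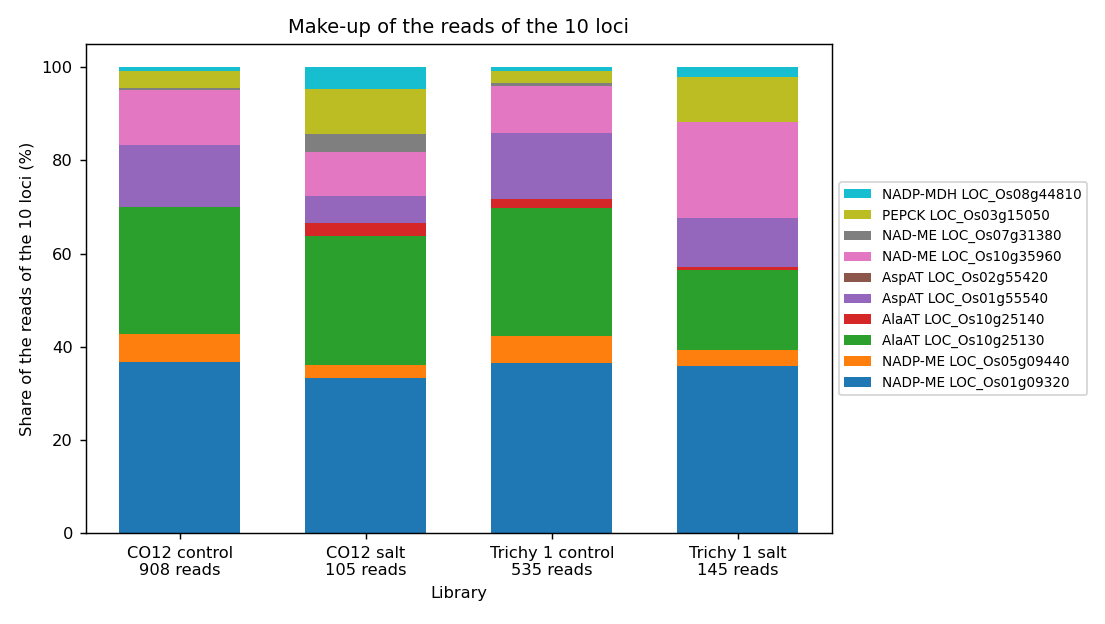
Stacked bars give the share (%) of the reads of the 10 loci that each locus took in each library, with the number of reads under the bar. The pair of control libraries look alike; Trichy 1 salt has the widest NAD malic enzyme block (20.7% for the family) and both salt libraries have a wider PEP carboxykinase block (9.52% and 9.66%).

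Without salt the genotypes were close. In Trichy 1 against CO12, 6 loci passed the floor of 20 reads and 0 of them were 2-fold apart, where 7.54% of 1034 features were 2-fold higher in Trichy 1 and 9.19% lower. The ratios of Trichy 1 to CO12 ran from 0.795 (0.393 to 1.53) for PEP carboxykinase LOC_Os03g15050 to 1.16 (0.859 to 1.56) for aspartate aminotransferase LOC_Os01g55540, and each of the 6 intervals includes equality. The direction turned with the scaling for 4 of them, LOC_Os01g55540, LOC_Os10g25130, LOC_Os01g09320 and LOC_Os05g09440. LOC_Os10g25140, under the floor of 20 reads, was apart as described above. With no floor, 24% of all features were 2-fold higher in Trichy 1 control and 44% lower.

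With salt, 3 loci passed and 1 of them was at least 2-fold apart, beside 7.47% of 576 features that were 2-fold higher in Trichy 1 and 5.38% lower. This was NAD malic enzyme LOC_Os10g35960, with 12.5 RPM in Trichy 1 salt against 5.46 in CO12 salt, a ratio of 2.28 (1.09 to 5.23). It rests on 30 reads against 10 and passed the floor through Trichy 1 salt alone. LOC_Os10g25130 had a ratio of 0.656 (0.368 to 1.16) and LOC_Os01g09320 of 1.13 (0.723 to 1.79). Aspartate aminotransferase LOC_Os01g55540, with 15 against 6 reads, had a ratio of 1.90 (0.697 to 5.98).

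Per kilobase of gene length, the order of the 6 loci with the highest levels was the same in both control libraries. NADP malic enzyme LOC_Os01g09320 led with 9.33 RPKM in CO12 control and 10.2 in Trichy 1 control, followed by alanine aminotransferase LOC_Os10g25130 (6.14 and 6.87), aspartate aminotransferase LOC_Os01g55540 (3.83 and 4.45), NAD malic enzyme LOC_Os10g35960 (3.10 and 2.96), NADP malic enzyme LOC_Os05g09440 (2.27 and 2.40) and PEP carboxykinase LOC_Os03g15050 (0.986 and 0.784). The counting intervals of LOC_Os01g55540 and LOC_Os10g35960 overlapped in both controls, as did those of LOC_Os10g35960 and LOC_Os05g09440, and the other neighbours in this order had intervals apart. By rank among all 55986 features these 6 loci stood between 274th and 1225th in CO12 control. How well finger millet reads match each rice locus is not measured here, so an order between loci is not an order of transcript amounts.

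The order differed in the salt libraries. In CO12 salt LOC_Os01g09320 had 3.36 RPKM and LOC_Os10g25130 2.46, and next came PEP carboxykinase LOC_Os03g15050 with 1.02 and NAD malic enzyme LOC_Os10g35960 with 1.00, ahead of aspartate aminotransferase LOC_Os01g55540 with 0.650. In Trichy 1 salt LOC_Os01g09320 had 3.80 RPKM, and NAD malic enzyme LOC_Os10g35960 with 2.28 stood ahead of LOC_Os10g25130 with 1.61, LOC_Os01g55540 with 1.24 and LOC_Os03g15050 with 1.09. All neighbours named here for the salt libraries had overlapping intervals.

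A list of 17 further loci had been drawn up for the rest of the C4 cycle and for related aminotransferases, malic enzymes and malate dehydrogenases. No annotation was at hand to pair these identifiers with enzymes, so they are given by number. The list shares 3 loci with the leaf marker list, which is therefore not separate from it. In CO12 13 of the 17 passed the floor, 4 were at least 2-fold lower with salt and 0 higher, beside 19.1% lower over all features, with a median log2 ratio of -0.76 beside -0.15. In Trichy 1 8 passed, 3 were 2-fold lower and 0 higher, beside 17.2% lower over all features, with a median of -0.92 beside -0.25. Their summed level was 844 RPM without and 494 with salt in CO12, and 1025 and 527 in Trichy 1. LOC_Os05g33570, the one with the most reads and on both lists, had 375 and 176 RPM in CO12 and 447 and 188 in Trichy 1.

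**Figure D5:**
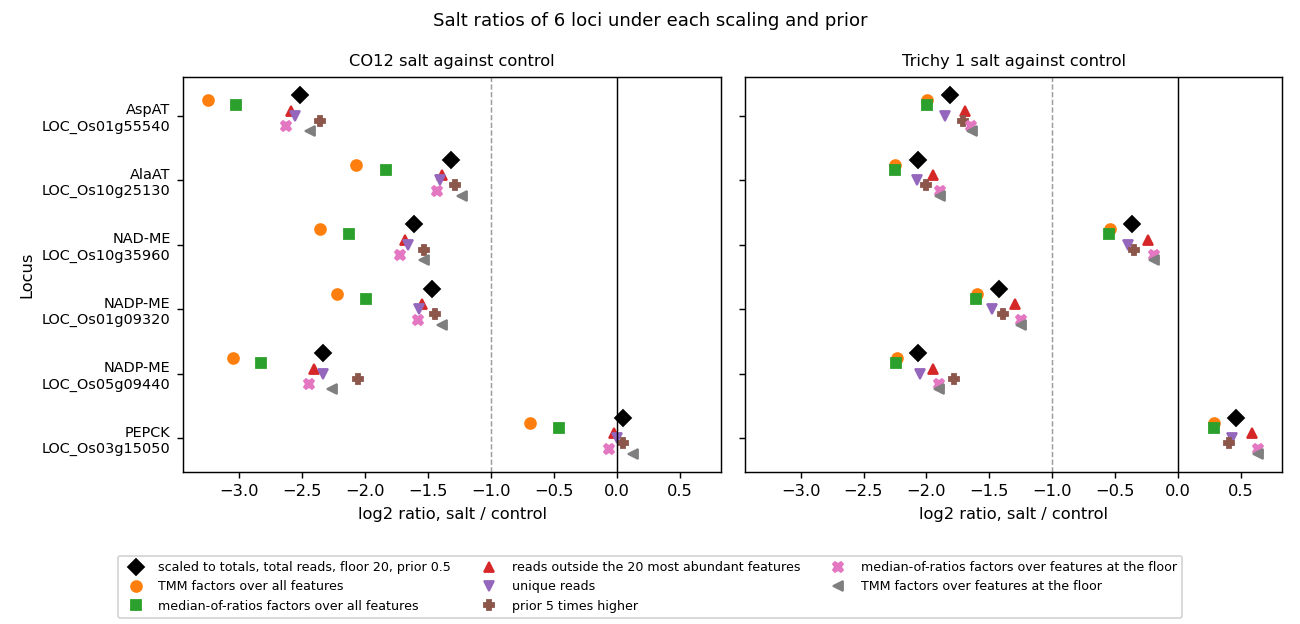
Each symbol is the log2 ratio of salt to control of 1 locus under 1 scaling, read type or prior, for CO12 (left) and Trichy 1 (right), with a dashed line at 2-fold lower. In CO12 5 loci stay left of that line under every setting shown, in Trichy 1 4 do, and PEP carboxykinase LOC_Os03g15050 crosses 0 in CO12.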

How the data were processed

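Leaf RNA of 4 groups, with 1 library each, was depleted of ribosomal RNA and sequenced on an Ion Proton, per the labels' protocols. The authors deposited counts of total and unique gene reads per feature, not normalized, and RPKM values. These equalled the total count scaled to 1000000 reads, per kilobase of the deposited gene length, with a largest relative difference of 5.7e-08. Aligner, counter and build were not given in the sources used here.

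Total gene reads were scaled to the library total. Log2 ratios used a prior of 0.5 count scaled to depth, and printed ratios used none. A feature was counted where one of the libraries compared held 20 reads or more, and called at 2-fold. Intervals are exact conditional binomial (Clopper-Pearson) for ratios, exact Poisson for levels and Wilson for shares, all at 95%, and 1.96 standard errors from 4 counts for differences between ratios. A count of 0 was given a limit of 3 counts. PCR copies are counted as reads, so intervals and limits cover counting error only. The calculation was checked on simulated counts that varied by counting error alone. Recovery of a change was scored at higher expected reads than several listed loci had, so it does not cover the lowest counts.

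The loci, lists and settings were chosen with earlier results of these data known. All 10 loci are named. The rule also allowed naming loci of the further list that were 2-fold apart, and 1 of these, with the most reads, is named; the rest are counted only, since no table pairs these identifiers with enzymes. Alternatives were TMM (edgeR 4.0.16) and median-of-ratios factors (DESeq2 1.42.0), reads outside the 20 most abundant features, unique reads, floors of 0 and 100 reads and a prior of 2.5. Python 3.11.15 and R 4.3.3 were used.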

Additional observations from a re-analysis of the deposited data

Results flagged for a closer look

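At 2 of the 10 loci the read level with salt lay above control in CO12 and below it in Trichy 1. Both loci were under the floor of reads, and the difference was not tested. The reads were too few to give a direction for LOC_Os07g31380, and LOC_Os10g25140 rests on at most 10 reads in a library. Some features over the floor also lay above control in CO12 and below it in Trichy 1. Their share of all features was not counted, so nothing is read from the count of 2 loci. Alanine aminotransferase LOC_Os10g25140 had 3 reads with salt against 0 in CO12 and 1 against 10 in Trichy 1, where the level was 7.19-fold lower (95% interval 1.02 to 312), and the log2 difference of the salt ratios, Trichy 1 minus CO12, was -6.26 (-11.2 to -1.32) and -3.46 with the prior 5 times higher. NAD malic enzyme LOC_Os07g31380 had 4 reads against 5 in CO12, a ratio of 2.74 (0.544 to 12.7), and 0 against 3 in Trichy 1, where the interval of the ratio reached 3.37. Its difference was -3.95 (-8.59 to 0.69) and -2.01 with the higher prior. These differences depend on the prior count, since a library of each locus had 0 reads.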

How the results depend on the processing

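With each of the 4 scalings by factors, with unique reads, with the reads outside the 20 most abundant features and with the higher prior, the counts of loci 2-fold apart stayed at 5 (CO12 salt), 4 (Trichy 1 salt), 0 (genotypes in control) and 1 (genotypes under salt). Both sets of factors restricted to features over the floor were chosen after seeing the data. The floor moved the counts by construction. With none they were 8, 7, 2 and 4, and 4 loci had a salt response 2-fold apart between genotypes against 1. Of all features, 28% were then 2-fold higher and 54% lower in CO12 salt, and 34% and 38% in Trichy 1 salt. For Trichy 1 against CO12 the shares were 24% and 44% in control, and 39% and 33% under salt. With 100 reads the counts of loci were 4, 2, 0 and 0, and 0 loci had a salt response 2-fold apart. At that floor 14.6% of all features were 2-fold lower in CO12 salt and 15.3% in Trichy 1 salt. The count of loci with a salt response 2-fold apart was 2 with TMM and with median-of-ratios factors over all features. TMM factors over all features put the median log2 ratio of all features at -0.90 in CO12 salt and -0.43 in Trichy 1 salt, and median-of-ratios factors over all features at -0.67 and -0.43, against -0.15 and -0.25. The share of all features 2-fold lower with salt was then 45.8% and 36.8% in CO12, against 19.1%, and 23.7% and 23.8% in Trichy 1, against 17.2%. The log2 ratio of PEP carboxykinase LOC_Os03g15050 in CO12 was 0.05, -0.69 with TMM factors over all features and -0.46 with median-of-ratios factors over all features. Of 266 values of single loci under these settings, 261 stayed within the counting interval and 5 moved out of it, all with TMM factors over all features. These were LOC_Os01g09320 and LOC_Os10g25130 in CO12 salt against control, and both of them and LOC_Os01g55540 between the genotypes in control. Of the 266 values, 30 changed sign, none of them in a comparison in which that locus was called 2-fold apart. No paired analysis was possible because each group has 1 library and the labels give no replicate numbers, and no replicate could be left out. Depth limits LOC_Os02g55420, LOC_Os10g25140, LOC_Os07g31380 and LOC_Os08g44810, with at most 10 reads each in a library.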
